A study of Caenorhabditis elegans with 2 samples.

Results

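The mir-51 family of Caenorhabditis elegans consists of the microRNA (miRNA) genes mir-51, mir-52, mir-53, mir-54, mir-55 and mir-56. These 6 genes, of 261 miRNA genes in the annotation, are described here for occupancy by the transcription factor CEH-6. They were chosen by name, and the family was chosen from the values of these lists, in which strong regions had been seen beside it, so the ranks below are a description. Chromatin immunoprecipitation and sequencing (ChIP-seq) was done on late embryos of strain OP748, in 2 biological replicates of 1 group. The worms carried the transgene wgIs748, which fuses ceh-6 to TY1 EGFP 3xFLAG, with an unc-119(+) rescue copy, the mutation unc-119(ed3) and the VC2010 background. Embryos of mixed sex were obtained by egg bleaching and are labelled with an age of 3.3 hours, counted from an unstated event. Whole embryos were used, sonicated to a size range of 200 to 800 bp, and CEH-6 was pulled down through an antibody against GFP. The tagged protein came from a transgene, and no worms without the tag and no mock immunoprecipitation belong to the design, so no groups of samples could be compared.

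miRNAs are short RNAs cut from hairpin precursors, and the bases 2 to 8 of a mature miRNA, its seed, pair with target messages. The mir-51 family is the worm branch of the animal miR-99/100 family, is abundant and broadly expressed in embryos, and its members act redundantly. Worms that lack the whole family die as embryos. CEH-6 is a POU homeodomain factor needed for the excretory canal cell, rectal epithelial cells and some neurons, and POU factors are known to bind the octamer ATGCAAAT.

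The mature sequences are shown because the shared seed is what defines the family. They were read from the RefSeq copy of assembly WBcel235 (ce11) at the annotated positions, 5′ to 3′, with the seed in capitals.
mir-51: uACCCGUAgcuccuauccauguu
mir-52: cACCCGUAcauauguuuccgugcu
mir-53: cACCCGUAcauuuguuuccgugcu
mir-54: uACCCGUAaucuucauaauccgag
mir-55: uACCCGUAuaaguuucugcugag
mir-56: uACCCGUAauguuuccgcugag
The seed ACCCGUA was found in these 6 miRNAs and in no other of 458 annotated mature miRNAs. In mir-51, mir-52 and mir-53 it lies on the 5′ arm of the hairpin, and in mir-54, mir-55 and mir-56 on the 3′ arm. The mature forms of mir-52 and mir-53 were the closest pair, with 23 of 24 aligned bases identical, and their hairpins were identical at 79% of aligned positions. Over the other pairs the hairpins were identical at 45 to 57.1% of aligned positions.

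The family occupies 3 places in the genome. The genes mir-51 (chrIV:11026013-11026112) and mir-53 (chrIV:11027593-11027691) lie on the minus strand with 1480 bp between them. They sit between alh-3, an aldehyde dehydrogenase gene on the plus strand that ends 142 bp from mir-51, and hrg-5, a heme transport gene on the minus strand that ends 597 bp from mir-53. The gene mir-52 (chrIV:14034008-14034107) is on the plus strand, intergenic, with irld-55 at 9379 bp and Y37A1B.7 at 8487 bp as the nearest protein-coding genes. The genes mir-54 (chrX:13144996-13145094), mir-55 (chrX:13144827-13144924) and mir-56 (chrX:13144691-13144787) form a cluster on the minus strand with gaps of 71 and 39 bp. That cluster lies on the opposite strand within intron 1 of F09A5.3, an intron of 9659 bp. A further hairpin, mir-55b, is annotated on the plus strand over mir-55, and it is counted outside the family here.

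All 3 places carried regions of high signal. The reproducible set, selected by the irreproducible discovery rate (IDR) procedure, holds 741 peaks, and 6 of them had their summit within 5000 bp of a family gene. Signal is the value the authors' caller gave to a region, on a scale not stated, so regions are described by their rank within a list, with rank 1 the highest. In coordinates and signal, these peaks were identical to the 741 strongest of 30000 regions in the list of both replicates together, so a rank among IDR peaks is also a rank in that pooled list. The lists of each replicate also hold 30000 regions. Read depth is unknown, and median signals were 40.4 in the pooled list, 19.7 in replicate 1 and 26.2 in replicate 2.

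The strongest family peak lay just upstream of mir-51. It spans chrIV:11025910-11026402 and had a signal of 900, rank 10 of the pooled list. Its rank was 8 in replicate 1 (signal 384) and 13 in replicate 2 (signal 517). The summit was 89 bp upstream of the mir-51 hairpin in the pooled list and in replicate 1, and 98 bp upstream in replicate 2. The sequence around the summit is shown because 2 RNA genes share the peak. It is chrIV:11026012-11026261, minus strand, with the summit at base 61 and with the non-coding RNA gene F36H1.17 and then the mir-51 hairpin in capitals.
mir-51 peak: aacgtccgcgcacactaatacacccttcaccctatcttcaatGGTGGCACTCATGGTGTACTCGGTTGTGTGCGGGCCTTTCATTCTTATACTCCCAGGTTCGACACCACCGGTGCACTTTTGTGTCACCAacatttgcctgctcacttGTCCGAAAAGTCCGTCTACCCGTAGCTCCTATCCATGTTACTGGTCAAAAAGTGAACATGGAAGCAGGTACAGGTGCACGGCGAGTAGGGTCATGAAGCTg
The summit lay inside F36H1.17, an RNA gene of 89 bp on the same strand whose function the annotation does not give, 18 bp from the hairpin. A summit at this spacing does not tell the miRNA gene from its neighbour. The same peak was 1392 bp downstream of mir-53 and 331 bp past the 3′ end of alh-3.

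No region of similar strength belonged to mir-53 itself. The nearest region of the pooled list had its summit 155 bp upstream of the mir-53 hairpin with a signal of 65, rank 3461. Its rank was 1583 in replicate 1, at 150 bp, and 7599 in replicate 2, at 99 bp. The hairpin most like mir-53 in sequence, mir-52, had a region of rank 125 with its summit inside the hairpin. The region of rank 3461 lay beside mir-53 and not inside it. Whether sequence likeness bears on rank was not tested.

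At mir-52 the summit lay inside the hairpin. This IDR peak, chrIV:14033827-14034172, had a signal of 297 and rank 125, with rank 148 in replicate 1 (signal 108) and rank 113 in replicate 2 (signal 183). Its window chrIV:14033933-14034133, plus strand, is shown with the summit at base 101 and the hairpin in capitals.
mir-52 peak: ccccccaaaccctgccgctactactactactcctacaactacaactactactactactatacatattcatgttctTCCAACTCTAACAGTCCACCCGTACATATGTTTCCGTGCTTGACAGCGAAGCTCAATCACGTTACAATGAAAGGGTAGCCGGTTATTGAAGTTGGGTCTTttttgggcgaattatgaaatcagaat
The summit fell within the 24 bases of the mature miRNA in all lists, at base 10 in the pooled list, base 1 in replicate 1 and base 9 in replicate 2. Sonicated fragments are far longer than that, so the position is that of the authors' summit and not of a contact. Other RNA genes overlap here too. The summit was also inside Y37A1B.335, an antisense non-coding RNA that shares 83 bp with mir-52, and 29 bp from Y37A1B.330. An additional IDR peak, chrIV:14032595-14033004, lay 1208 bp upstream of mir-52 and 2 bp from the non-coding RNA Y37A1B.332. It had a signal of 146 and rank 385, with rank 302 in replicate 1 and rank 547 in replicate 2.

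The X cluster differed in form, with 3 weaker IDR peaks beside the hairpins and none over them. The peak chrX:13144197-13144606 was 289 bp downstream of mir-56, with signal 144 and rank 391. The peak chrX:13145124-13145533 was 235 bp upstream of mir-54, the first hairpin of the cluster, with signal 132 and rank 453. The peak chrX:13143310-13143719 was 1176 bp downstream of mir-56, with signal 116 and rank 600. All 3 summits lay within the F09A5.3 intron. A weaker region with rank 2404 followed 1155 bp upstream of mir-54, and these 4 summits of the pooled list were spaced 887, 927 and 920 bp apart. The fifth pooled region near the cluster, of rank 17196, lay 1853 bp beyond them, and replicate 1 had an extra summit of rank 12682 between those of the 3 peaks, so the spacing was not the same in all lists.

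The replicates ordered the X peaks differently. Replicate 1 ranked the peak 289 bp downstream of mir-56 first of the 3, at 345, and the peak upstream of mir-54 last, at 2020. Replicate 2 ranked the peak upstream of mir-54 first, at 320, and the other at 447. The peak 1176 bp downstream of mir-56 had rank 672 in replicate 1 and 653 in replicate 2. The upstream peak had a signal of 35.5 in replicate 1 and 100 in replicate 2, and it is the family peak that did not reach the 741 strongest regions of replicate 1. Its window chrX:13145199-13145399, minus strand, is shown as the only IDR peak upstream of the cluster within 5000 bp, with the summit at base 71 and the non-coding RNA gene F09A5.11, 58 bp from the summit, in capitals.
mir-54 upstream peak: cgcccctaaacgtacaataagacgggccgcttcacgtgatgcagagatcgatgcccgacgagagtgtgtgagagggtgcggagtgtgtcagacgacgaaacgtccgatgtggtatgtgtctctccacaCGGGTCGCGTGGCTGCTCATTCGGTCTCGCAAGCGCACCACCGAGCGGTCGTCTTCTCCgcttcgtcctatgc

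**Figure D1:**
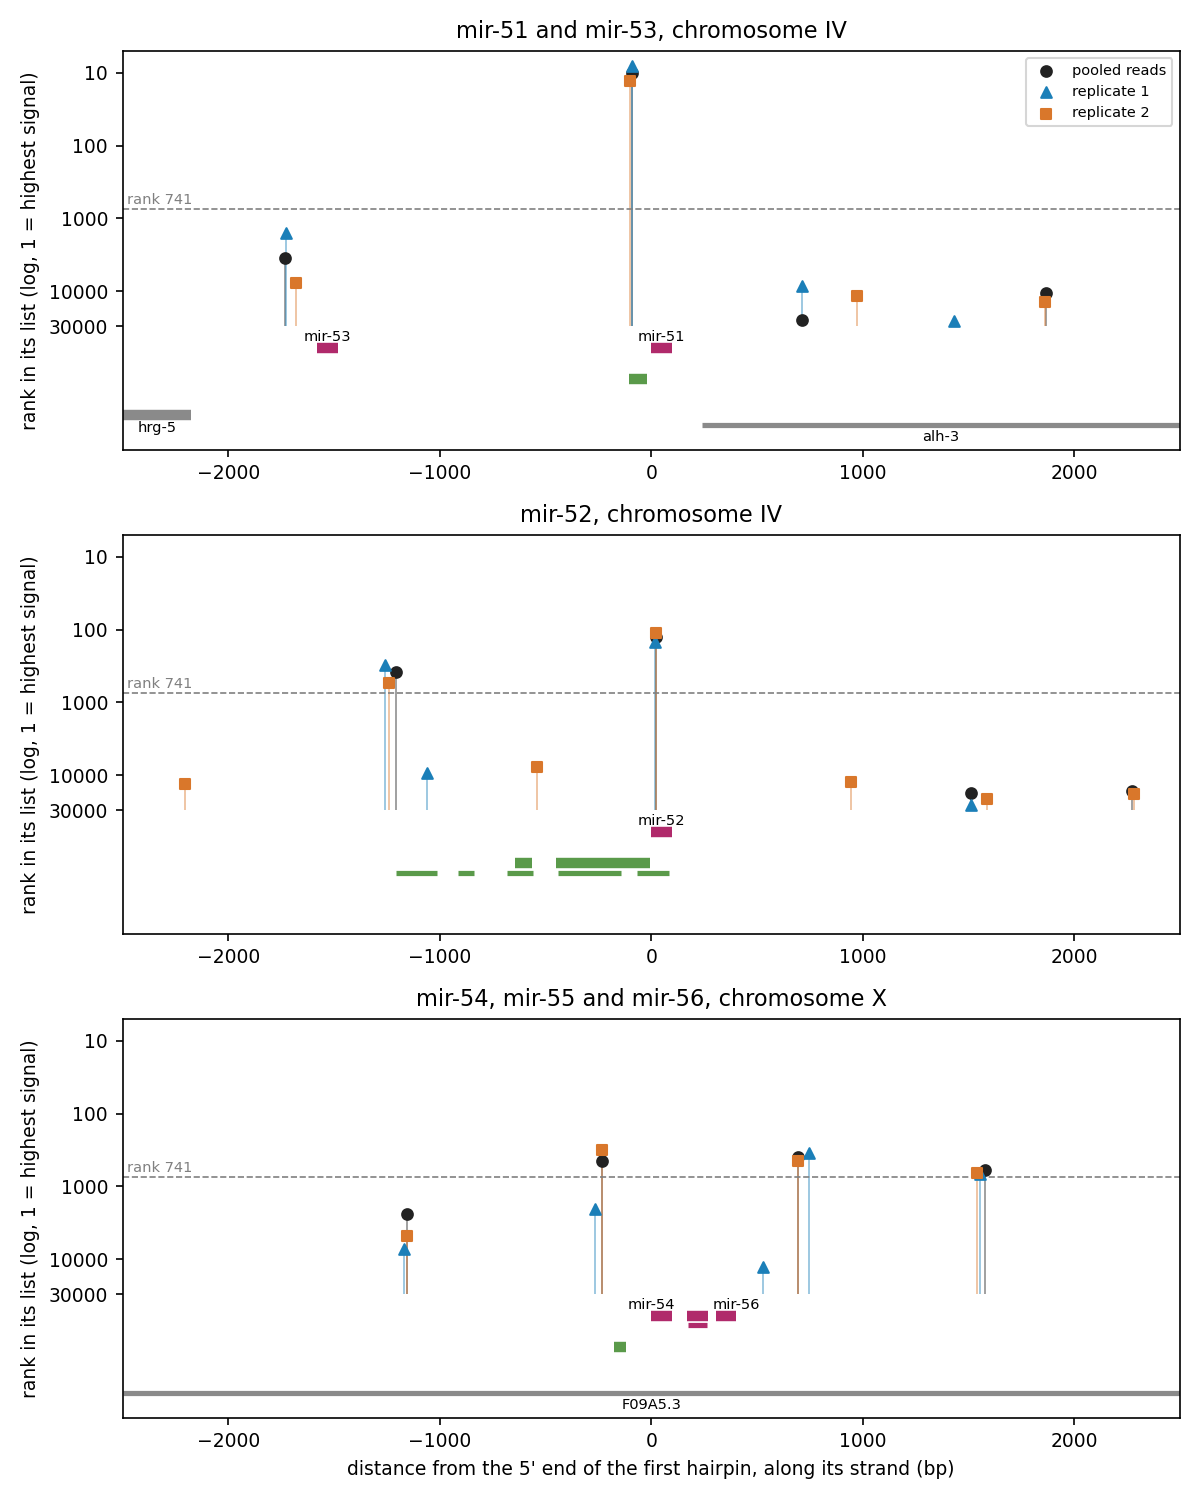
Regions around the family genes, by rank in the pooled list (circles), replicate 1 (triangles) and replicate 2 (squares) on a log axis with rank 1 at the top, against the distance of the summit from the 5′ end of mir-51, mir-52 or mir-54 in bp, negative upstream. Bars mark miRNA genes (red; mir-55 is the unlabelled hairpin between mir-54 and mir-56), non-coding RNA genes (green) and protein-coding genes (grey), thin on the other strand. The mir-51 and mir-52 hairpins each have 1 peak at or beside them in all 3 lists, while the peaks of the X cluster flank it.

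Of the 6 family peaks, 5 were among the 741 strongest regions of both replicates, against 483 of all 741 IDR peaks (65.2%). In this matching each IDR peak took the best ranked replicate region over its summit, and some neighbouring IDR peaks took the same region. The summits of replicates 1 and 2 were 8 to 54 bp apart at the family peaks, against a median of 23 bp over the 727 IDR peaks with a region in both replicates. The ranks in the replicates differed 1.03-fold to 1.81-fold for 5 family peaks and 6.31-fold for the peak upstream of mir-54. The median over the same 727 peaks was 1.45-fold, and 3.33-fold was the 90th percentile. Within 5000 bp of the family the relaxed lists held 14 regions in the pooled list, 16 in replicate 1 and 15 in replicate 2, down to ranks 24735, 25820 and 21130. The weakest regions differed between the lists. A relaxed region is common near miRNA genes, as 230 of the 255 others (90.2%) had one of the pooled list within 5000 bp.

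**Figure D2:**
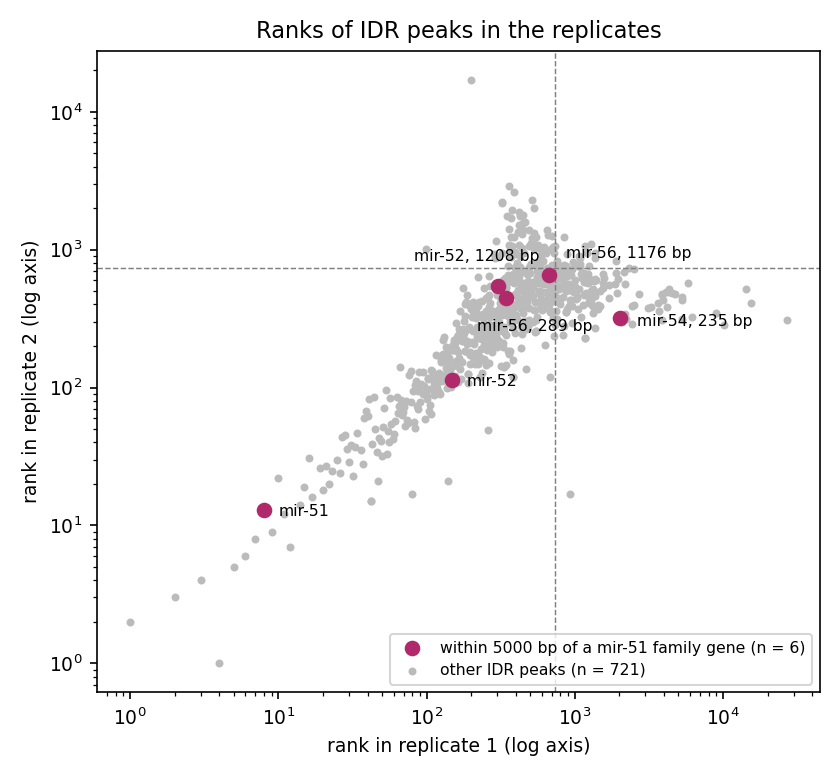
Rank of IDR peaks in replicate 1 and in replicate 2, both on log axes, for the 6 peaks within 5000 bp of a family gene (red, named by the nearest hairpin and distance) and the other 721 IDR peaks with a region in both replicates (grey). Dashed lines mark rank 741, and the peak upstream of mir-54 lies beyond it in replicate 1, at rank 2020.

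An IDR summit within 100 bp of the hairpin was found for 2 of the 6 family genes, mir-51 and mir-52. Of the 255 other miRNA genes, 1 had such a summit (0.392%), with an exact Clopper-Pearson 95% interval of 0.00993 to 2.17% that covers counting error only. That gene was mir-5549 on chromosome III, with a summit 19 bp upstream, a signal of 109 and rank 696. It had rank 883 in replicate 1 and 926 in replicate 2, so among the 741 strongest regions of each replicate alone 0 of the 255 other miRNA genes had a summit within 100 bp, while mir-51 and mir-52 had one in both. Among other RNA genes, 32.5% of 612 tRNA genes, 15.6% of 346 snoRNA genes, 6.2% of 129 snRNA genes and 3.55% of 7764 genes of the ncRNA class had an IDR summit within 100 bp, and that share was 1.55% for protein-coding genes. No gene annotated as tRNA, snoRNA or snRNA lay within 5000 bp of a family member, and the nearest tRNA gene was 20131 bp from mir-52. That statement does not cover F36H1.17 at the mir-51 summit, which is of the ncRNA class with no function given. With a limit of 1000 bp, 5 of the 6 family genes and 20 of the 255 other genes (7.84%) had an IDR peak. Within 5000 bp the counts were 6 of 6 and 40 of 255 (15.7%). Neighbouring genes share peaks, and 1 of the other genes, mir-55b, owes its count to the family's own X peaks. When miRNA genes with gaps of at most 1000 bp were joined into loci, 2 of 4 family loci and 1 of 217 others (0.461%) had an IDR summit within 100 bp. By this limit mir-51 and mir-53, with 1480 bp between them, are separate loci. Within 5000 bp the X cluster had 3 IDR peaks, while no other miRNA locus had more than 2. These counts describe a family chosen for its peaks and were not tested.

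**Figure D3:**
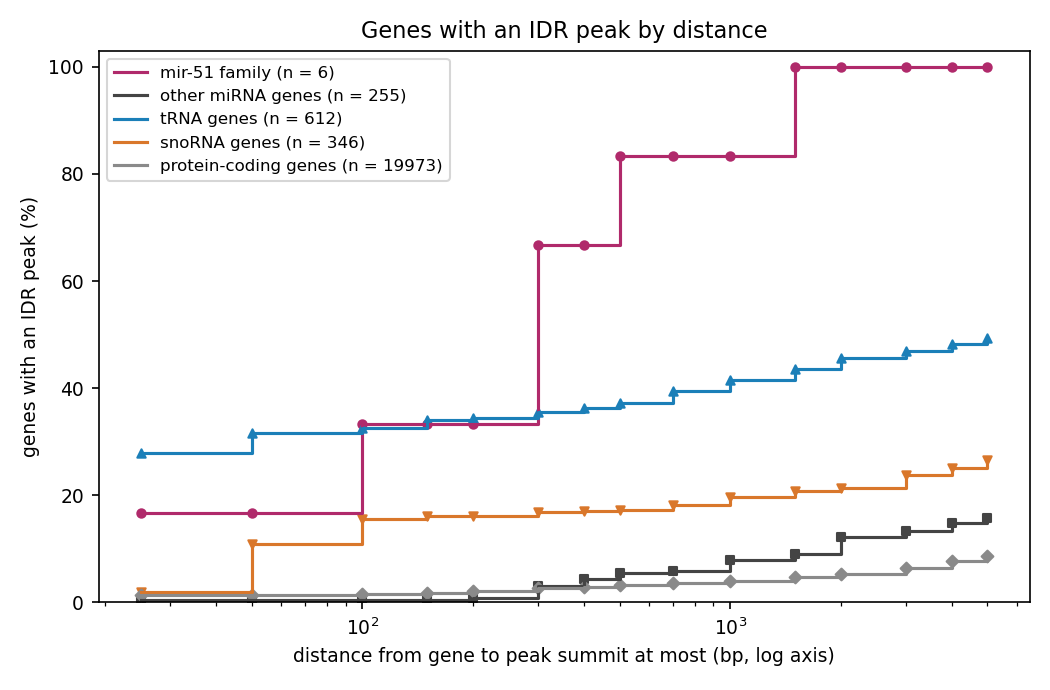
Share of genes with an IDR summit within a given distance (log axis, bp) for the 6 family genes, 255 other miRNA genes, 612 tRNA genes, 346 snoRNA genes and 19973 protein-coding genes. The family curve steps from 33.3% at 100 bp to 83.3% at 1000 bp, and each step is 1 or more of 6 genes, while 0.392% of other miRNA genes had a summit within 100 bp and 7.84% within 1000 bp.

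The family's best regions also had a lower median rank number, that is a higher signal, than those of the other miRNA genes. Within 1000 bp the median best rank was 391 over the 6 family genes and 7821 over the 159 other miRNA genes with a region there, whose best was 187. Within 5000 bp it was 258 over the 6 family genes and 5359.5 over 230 others. These medians count genes and not peaks, since mir-54, mir-55 and mir-56 share the peak of rank 391 and, within 5000 bp, mir-53 takes the mir-51 peak of rank 10. No other miRNA gene had a better rank than mir-51 at that distance, and 4 others were ahead of mir-52, the best of them mir-4813 at rank 91. For the others of these, mir-1819, mir-2212 and mir-230, the peak had a tRNA gene within 100 bp of its summit. Of them, mir-1819 and mir-2212 shared a peak. The peak of rank 187, the best of the other genes within 1000 bp, also had a tRNA gene within 100 bp of its summit. The mir-51 and mir-52 summits likewise lay inside other RNA genes, F36H1.17 and Y37A1B.335, both of the ncRNA class. Whether such genes account for any of these ranks was not tested. By the sum of log10 rank differences from mir-51 in the replicates, the 5 genes nearest to it within 100 bp were mir-4930, mir-5549, mir-58a, mir-4936 and mir-8196a, among 22 others with a region in both. The nearest, mir-4930, had rank 775 in replicate 1 and 986 in replicate 2, where mir-51 had ranks 8 and 13.

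**Figure D4:**
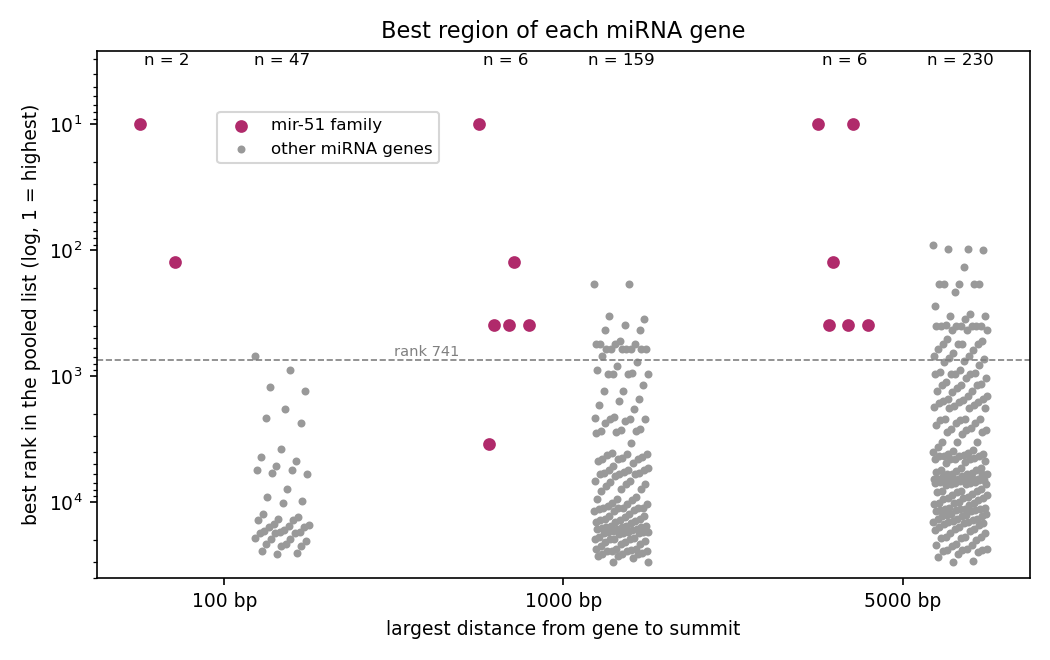
Best rank in the pooled list (log axis, rank 1 at the top) of any region with its summit within 100, 1000 or 5000 bp of each miRNA gene, for family genes (red, left) and other miRNA genes (grey, right). The number of genes with a region stands above each column, horizontal position within a column has no meaning, and the dashed line is rank 741, the end of the IDR set; the family reaches rank 10 in each column, against 696, 187 and 91 for the best of the others.

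Other miRNA families gave a mixed picture. All 8 genes of the mir-35 family, which acts in the embryo, had an IDR peak within 1000 bp but none within 100 bp. They share 2 peaks, with rank 611 for the cluster of mir-35 to mir-41 and rank 556 for mir-42, which lies elsewhere on chromosome II beside mir-43 and mir-44. None of the 7 genes of the let-7 family, which times larval development, had one within 1000 bp, and the best ranks there were 11198 for mir-241 and 11825 for mir-793. The lin-4 family, also of developmental timing, had none of 2, with rank 4231 for lin-4. In the mir-58 family, 2 of the 6 genes found had a peak within 1000 bp, at rank 332 for mir-80 and 354 for mir-58a.

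Of 13 genes of miRNA processing and action, 4 had an IDR peak within 1000 bp of the gene, and 815 of 19973 protein-coding genes (4.08%) did. A summit anywhere inside a gene counted here, as for alg-1, and gene length was not matched. The 13 genes are a hand-picked list, and the difference was not tested. The strongest were nhl-2, a cofactor of the silencing complex, with rank 335, and vig-1, a component of that complex, with rank 339. The GW182-like gene ain-1 had rank 398 and the Argonaute gene alg-1 rank 727. Of the other 9, all but dcr-1 had a weaker region of the pooled list within 1000 bp. For the cadherin gene cdh-3, which was also looked up, the best region had rank 6705 and was no IDR peak.

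None of the searched motifs was common to the family peaks, and 6 windows are too few to set the family apart from the shares given here. In windows reaching 100 bp to each side of the summit, on both strands, the octamer ATGCAAAT occurred in 0 of the 6 family peaks, against 2.02% of IDR peaks and 1.84% of all pooled regions. The repeats GAGAGAGA and CACACACA also occurred in 0 of 6, against 8.1% and 9.99% of IDR peaks and 3.67% and 3.22% of pooled regions. The letters GGTTCGA, the core of the B box inside genes read by RNA polymerase III, occurred in 1 of 6, at the mir-51 peak, against 20.9% of IDR peaks and 2.45% of pooled regions. There the match began 37 bases past the summit and lies in F36H1.17. GC content of the windows was 52.7% at mir-51 and 42.8% at mir-52, and 57.7% at the peak next downstream of mir-56, against medians of 48.3% over IDR peaks and 41.8% over pooled regions. A non-coding RNA gene lay at the summit of 22.8% of IDR peaks and 3.69% of pooled regions. Every 36-base word of the 6 family peaks occurs once in the genome as an exact match. Copies with mismatches were not searched, and the aligner is not given.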

How the data were processed

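ChIP-seq lists of CEH-6-eGFP late embryos (2 biological replicates) were analysed. The deposited lists give a signal for each region, made by the authors relative to 1 control. The assembly is ce11 per the labels, with peak caller and aligner not given in the sources used here: neither labels nor headers name them. The lists hold no read counts, so depth is unknown. Of 4 lists, 1 was called on each replicate, 1 on pooled reads, and 1 holds the IDR peaks.

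Regions were ranked by deposited signal within each list. Summits were placed on Ensembl release 115 genes (WBcel235), and all 261 miRNA genes had the same coordinates in RefSeq, which supplied the sequence. Distance ran from summit to nearest base of the hairpin or other gene, with limits of 100, 250, 1000 and 5000 bp. Of the listed genes, mir-1834 matched no annotated gene and was not used here. Near the 5000 bp limit in the pooled list, the region just inside lay at 4419 bp (rank 19425) and the one just outside at 5811 bp (rank 24240). Intervals are exact Clopper-Pearson at 95%. Python 3.11.15, scipy 1.17.1, Biopython 1.88 and matplotlib 3.10.9 were used, and the placement was tested on simulated regions.

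The members and lists were chosen with earlier results of these data known. Named were all members, their neighbours, the other miRNA genes with a peak within 100 bp, the 5 genes of most similar rank and the 2 best ranked of each list; alg-1 and ain-1 were named after their values were seen. Alternatives were other distances, thresholds, distance rules and each replicate alone.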

Additional observations from a re-analysis of the deposited data

How the results depend on the processing

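The number of family genes with an IDR peak was 2 at 100 bp, 3 at 250 bp, 5 at 1000 bp and 6 at 5000 bp. It stayed at 2 in each replicate alone, with any overlap of peak and hairpin, with distance to the 5′ end, with the strongest 370 peaks and with 1482 pooled regions. The share of all miRNA genes with an IDR peak was 1.15% at 100 bp, 3.07% at 250 bp and 9.58% at 1000 bp, and 0.766% at 100 bp among the 741 strongest regions of either replicate alone. Outside the family, no miRNA gene of 255 had one of those regions within 100 bp. The best rank within 5000 bp of mir-54, mir-55 and mir-56 was 391 in the pooled list, and 320 to 345 with either replicate left out. The peak behind it differed: in replicate 1 it lay downstream of mir-56, and in replicate 2 upstream of mir-54. No paired analysis was possible because the design has 1 group. With 2 replicates, unknown depth and no mock immunoprecipitation, the spread of a rank is known only from its value in each list.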
